A study of Mus musculus with 6 samples.

Results

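The mRNAs of the TGF-beta system were examined in 3 mouse melanoma lines: the ligands Tgfb1, Tgfb2 and Tgfb3, the signalling receptors Tgfbr1 and Tgfbr2, the latent TGF-beta binding proteins Ltbp1, Ltbp2, Ltbp3 and Ltbp4, and Tgfbi, a secreted matrix protein named for its induction by TGF-beta. These 10 genes were chosen by symbol and all 10 were found among the 23951 genes of the expression table. Of them 7 reached 1 FPKM in at least 2 libraries and were tested among 11379 genes, whereas Ltbp1, Ltbp2 and Tgfbi stayed below that level and are given by their values. FPKM are fragments scaled by transcript length and by mapped reads, a unit in which levels of different genes can be set side by side per length.

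The lines all descend from the B16 melanoma, a tumour of black C57BL/6 mice. B16-F1, bought from ATCC, is the line of low metastatic potential. B16-F1R2 came from a lymph node metastasis and was obtained from a laboratory at ETH Zurich. B16-F1R2L, which only the sample labels describe, came from the same laboratory and was derived from a lung metastasis that in turn went back to a lymph node metastasis. Each line was sampled as 2 libraries of untreated cells grown in high glucose DMEM with serum, with no engineered allele or added agent named in the labels. Each is a cultured line, so a difference between lines is also a difference between their sources and culture histories, which cannot be told apart from metastatic origin. Nothing in the labels tells if replicate libraries were made from independent cultures, so the p-values measure the spread between these libraries only, which may be technical.

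TGF-beta is secreted in a latent complex, in which the cleaved propeptide holds the mature ligand inactive and a latent TGF-beta binding protein ties the complex to the extracellular matrix. Once released by integrins or proteases, the ligand binds the type II receptor TGFBR2, which recruits and phosphorylates the type I receptor TGFBR1, and the type I receptor phosphorylates SMAD2 and SMAD3, which enter the nucleus with SMAD4. In melanocytes TGF-beta is known to restrain growth and pigment production, and melanomas commonly secrete the ligands while escaping their growth control.

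The libraries were alike in depth, with an estimated 12400000 to 14800000 reads behind each, and the FPKM of a library summed to between 596657 and 672794. The median absolute log2 difference between the libraries of a line was 0.0669 for B16-F1, 0.0852 for B16-F1R2 and 0.0951 for B16-F1R2L. All 8 melanocyte markers examined were above 1 FPKM in every line, although their summed level was 15010 to 15050 FPKM for B16-F1, 7937 to 8150 FPKM for B16-F1R2 and 8958 to 8966 FPKM for B16-F1R2L. The 6 leukocyte markers summed to at most 0.0285 FPKM in any library, with Ptprc, Cd3e, Itgam, Emr1 and Cd52 listed at 0 in all 6 libraries. The 6 fibroblast markers summed to 0.735 to 0.881 FPKM for B16-F1, 1.21 to 1.29 for B16-F1R2 and 1.86 to 2.31 for B16-F1R2L, with Dcn, Lum and Thy1 listed at 0 throughout. The 5 endothelial markers were at 0 for B16-F1, with sums of 0.752 to 0.758 FPKM for B16-F1R2 and 1.14 to 1.26 FPKM for B16-F1R2L, with Cdh5, Tie1 and Kdr at 0 throughout, and the 4 epithelial markers summed to 0.281 to 0.578 FPKM. The sums of the melanocyte, fibroblast and endothelial markers differed between the lines in the same samples as the results below, and their part in those results was not tested.

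The promoters of Tgfb1 and Tgfb2, which moved in opposite directions between B16-F1 and B16-F1R2, and of Ltbp2, which was listed at 0 in B16-F1 only, are shown because the results turn on these members. RefSeq promoters of 300 bases (250 before the start site and 50 after it, build GRCm38.p6) were found for 9 of the 10 genes, Tgfb3 being the exception. The promoter of Tgfb1 lies on the plus strand at chr7:25686752-25687051, that of Tgfb2 on the minus strand at chr1:186705940-186706239 and that of Ltbp2 on the minus strand at chr12:84876442-84876741. Capitals mark matches, on either strand, to the motifs described after the sequences.
Tgfb1: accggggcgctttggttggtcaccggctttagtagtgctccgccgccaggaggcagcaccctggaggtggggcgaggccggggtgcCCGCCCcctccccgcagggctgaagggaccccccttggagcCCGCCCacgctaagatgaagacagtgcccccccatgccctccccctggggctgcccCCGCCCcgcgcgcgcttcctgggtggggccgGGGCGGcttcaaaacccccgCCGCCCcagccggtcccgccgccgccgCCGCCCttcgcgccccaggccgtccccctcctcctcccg
Tgfb2: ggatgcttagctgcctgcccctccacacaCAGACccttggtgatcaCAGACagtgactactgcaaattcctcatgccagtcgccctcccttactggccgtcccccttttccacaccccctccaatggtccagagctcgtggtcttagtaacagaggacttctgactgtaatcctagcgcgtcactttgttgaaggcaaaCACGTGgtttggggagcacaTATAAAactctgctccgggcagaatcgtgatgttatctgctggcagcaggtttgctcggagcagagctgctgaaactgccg
Ltbp2: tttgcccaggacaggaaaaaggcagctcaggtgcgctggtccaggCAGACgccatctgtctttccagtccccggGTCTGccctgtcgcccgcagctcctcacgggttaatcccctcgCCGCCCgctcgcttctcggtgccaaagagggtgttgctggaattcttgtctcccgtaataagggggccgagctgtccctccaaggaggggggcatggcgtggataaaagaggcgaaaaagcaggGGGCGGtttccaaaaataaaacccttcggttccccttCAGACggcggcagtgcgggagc

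The 3 windows differ in their base composition and in the motifs they hold. The Tgfb1 window was 77.0% G and C and held 6 matches to the Sp1 box GGGCGG, which 35.7% of the 32851 RefSeq promoters of this length hold at least once. The Tgfb2 window was 54.3% G and C and had no such box. It held the TATA box TATAAA, found in 13.6% of all promoters, the E-box CACGTG, the sequence bound by MITF and related factors, found in 7.15%, and 2 matches to the Smad box CAGAC, found in 49.6%. The Ltbp2 window was 61.0% G and C and held 2 Sp1 boxes and 3 Smad boxes. The other motifs searched on both strands, the cAMP response element TGACGTCA (1.79% of promoters), the AP-1 site TGANTCA (7.81%) and the M-box CATGTG (14.2%), had no match in these 3 windows, and no match overlapped another motif. A match is a description of the letters and was not related to the expression values.

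The ligands differed between the lines: Tgfb1 was the most abundant ligand mRNA in B16-F1, and Tgfb2 and Tgfb3 rose to the level of Tgfb1 or above it in B16-F1R2. Tgfb1 (ENSMUSG00000002603.9, chr7:26472021-26490096 on the plus strand of NCBIM37, the assembly that mm9 names, 7 exons in the longest transcript) encodes the ligand most widely made by tumour and immune cells. Its level was 8.68 and 6.72 FPKM in the B16-F1 libraries, 3.92 and 4.33 FPKM in those of B16-F1R2 and 6.04 and 5.22 FPKM in those of B16-F1R2L. The B16-F1 libraries were the highest and the B16-F1R2 libraries the lowest, with no overlap between any 2 lines. In such bulk RNA, fewer cells with the transcript and less RNA per cell cannot be told apart. The replicates were uneven here, since the gap within B16-F1 was wider than the gap from its lower library to the B16-F1R2L mean.

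Tgfb1 was 1.83-fold lower in B16-F1R2 than B16-F1 on the log2(FPKM + 0.1) scale (log2 fold change -0.88, SE 0.143, 95% interval -1.22 to -0.53, adjusted p = 0.00255 by limma with Benjamini-Hochberg adjustment over all tested genes). In B16-F1R2L it was 1.35-fold lower than in B16-F1 (log2 fold change -0.44, interval -0.78 to -0.09, adjusted p = 0.0382 by limma). That second call was lost in 9 of 16 alternative analyses. It was lost when the FPKM were rescaled to a common sum (log2 fold change -0.34, adjusted p = 0.0994 by limma), without B16-F1 replicate 1 (-0.25, adjusted p = 0.189), without B16-F1R2L replicate 2 (-0.33, adjusted p = 0.176), without B16-F1R2L replicate 1 (adjusted p = 0.0534) and without either B16-F1R2 library (adjusted p = 0.0575 and 0.0584). The step from B16-F1R2 to B16-F1R2L was 0.44 on the log2 scale (interval 0.09 to 0.78) and missed the threshold (adjusted p = 0.072, unadjusted p = 0.0203 by limma), but passed it after rescaling to a common sum (adjusted p = 0.0427).

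Tgfb2 (ENSMUSG00000039239.8, chr1:188447065-188529871, minus strand, NCBIM37, 7 exons) encodes a ligand that binds the type II receptor weakly without the co-receptor betaglycan. Its level was 3.01 and 2.67 FPKM in the B16-F1 libraries, 4.81 and 4.95 FPKM in those of B16-F1R2 and 4.89 and 4.33 FPKM in those of B16-F1R2L. Both B16-F1 libraries lay below all 4 others, and the values of B16-F1R2 and B16-F1R2L overlapped. Tgfb2 was 1.70-fold higher in B16-F1R2 than B16-F1 (log2 fold change 0.76, SE 0.107, interval 0.50 to 1.02, adjusted p = 0.00136 by limma) and 1.60-fold higher in B16-F1R2L than B16-F1 (log2 fold change 0.68, interval 0.42 to 0.94, adjusted p = 0.00221). Between B16-F1R2L and B16-F1R2 the difference was -0.08 on the log2 scale, with an interval of -0.34 to 0.17 (adjusted p = 0.600 by limma).

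Tgfb3 (ENSMUSG00000021253.6, chr12:87397694-87419991, minus strand, NCBIM37, 7 exons) encodes the ligand best known for its part in palate closure and wound repair. Its level was 2.27 and 2.78 FPKM in the B16-F1 libraries, 4.32 and 4.91 FPKM in those of B16-F1R2 and 4.38 and 4.22 FPKM in those of B16-F1R2L. As with Tgfb2, both B16-F1 libraries were the lowest and the other lines overlapped. Tgfb3 was 1.80-fold higher in B16-F1R2 than B16-F1 (log2 fold change 0.85, SE 0.127, interval 0.54 to 1.15, adjusted p = 0.00179 by limma) and 1.68-fold higher in B16-F1R2L (log2 fold change 0.75, interval 0.45 to 1.06, adjusted p = 0.00298). From B16-F1R2 to B16-F1R2L the difference was -0.10 with an interval of -0.40 to 0.21 (adjusted p = 0.616 by limma). Under quantile normalization the differences of B16-F1R2L from B16-F1 shrank to 0.36 for Tgfb2 and 0.41 for Tgfb3 and stayed past the threshold (adjusted p = 0.032 and 0.0251 by limma).

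**Figure D1:**
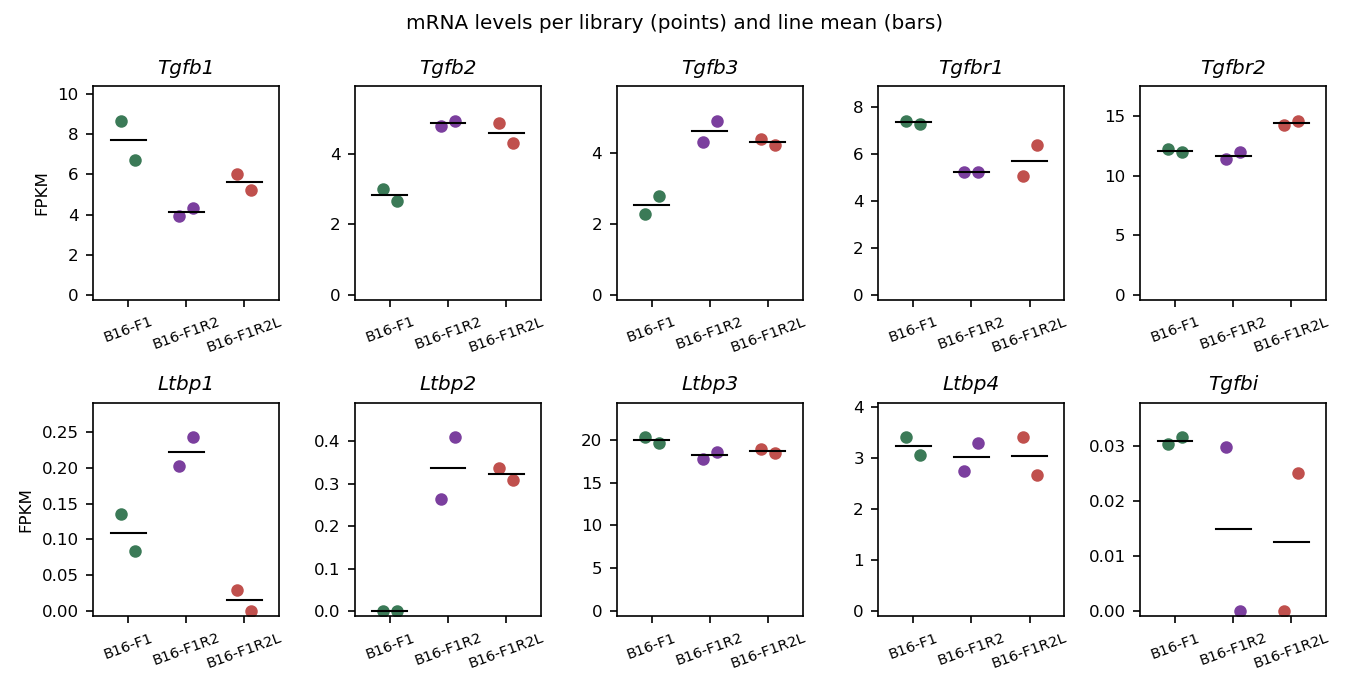
FPKM of the 10 genes (linear axis from 0, a separate scale for each gene) in the 2 libraries of each line, with a point for each library and a bar at the mean of the line. Tgfb2 and Tgfb3 are lowest in both B16-F1 libraries, Tgfb1 is highest there, and Ltbp1, Ltbp2 and Tgfbi stay under 1 FPKM in all libraries.

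Set against each other within a library, the ligand mRNAs differed in proportion between the lines, while their sum stayed between 12.2 and 15.3 FPKM. Tgfb1 made up 58.7% ± 4.90 (SD, n = 2) of the summed ligand FPKM for B16-F1, 30.3% ± 0.358 for B16-F1R2 and 38.7% ± 1.06 for B16-F1R2L. Tgfb2 made up 21.7% ± 0.268, 35.9% ± 1.39 and 31.7% ± 0.358 in the same order, and Tgfb3 19.5% ± 4.64, 33.8% ± 1.04 and 29.6% ± 1.42. The Tgfb1 to Tgfb2 ratio was 2.88 and 2.52 within B16-F1, 0.815 and 0.875 within B16-F1R2 and 1.24 and 1.21 within B16-F1R2L, so that no library of a line fell within the range of another. By contrast the ratio of Tgfb2 to Tgfb3 overlapped between the lines, at 1.33 and 0.961, at 1.11 and 1.01, and at 1.11 and 1.03. An exact permutation test of 2 against 2 libraries cannot go below p = 0.333, so these shares and ratios are given without a test. Of the 50-base stretches in the coding transcripts of the 3 ligands, 0% occur in another annotated gene, and the share was 0% for Tgfbr1 and 0.507% for Tgfbr2.

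**Figure D2:**
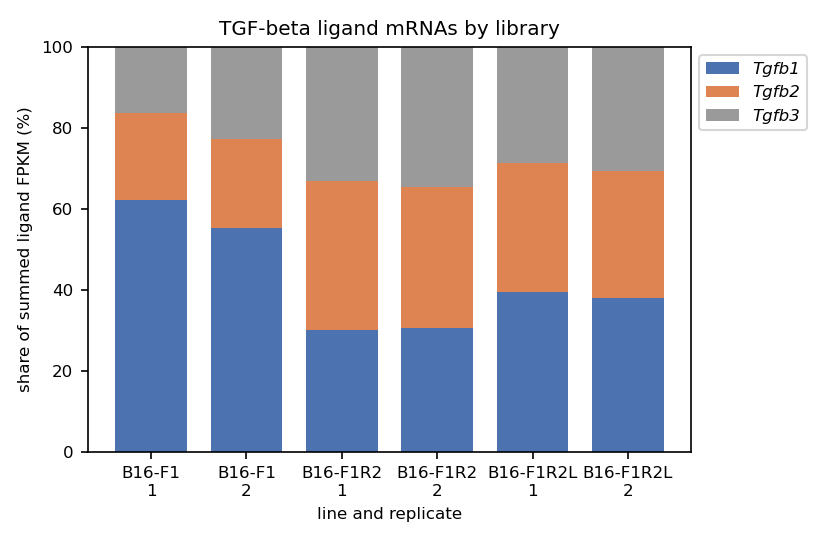
Share (%) of the summed FPKM of the 3 ligand genes taken by Tgfb1, Tgfb2 and Tgfb3 in each of the 6 libraries, stacked. Tgfb1 takes 55.2% or more in the B16-F1 libraries, 30.0% and 30.5% in the B16-F1R2 libraries and 37.9% and 39.4% in the B16-F1R2L libraries.

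Of the receptors, Tgfbr1 was lower in B16-F1R2 than B16-F1, and Tgfbr2 was higher in B16-F1R2L than in either other line. Tgfbr1 (ENSMUSG00000007613.9, chr4:47366094-47427803, plus strand, NCBIM37, 9 exons), the type I receptor kinase ALK5 that phosphorylates SMAD2 and SMAD3, was at 7.41 and 7.27 FPKM in the B16-F1 libraries, 5.21 and 5.23 FPKM in those of B16-F1R2 and 5.06 and 6.35 FPKM in those of B16-F1R2L. Both B16-F1 libraries were above all others, and the B16-F1R2 values lay between those of B16-F1R2L. It was 1.40-fold lower in B16-F1R2 (log2 fold change -0.48, SE 0.114, interval -0.76 to -0.21, adjusted p = 0.0116 by limma) and 1.29-fold lower in B16-F1R2L (log2 fold change -0.37, interval -0.64 to -0.09, adjusted p = 0.0322).

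Neither Tgfbr1 call held throughout when libraries were left out. In B16-F1R2 the adjusted p by limma was 0.0603 without B16-F1 replicate 1, 0.0524 without B16-F1 replicate 2, 0.0539 without B16-F1R2 replicate 1 and 0.0513 without B16-F1R2 replicate 2, while the log2 fold change stayed between -0.50 and -0.47 in these 4 fits. In B16-F1R2L the Tgfbr1 call was lost in 8 of 16 alternatives, among them rescaling to a common sum (log2 fold change -0.27, adjusted p = 0.132) and the fits without B16-F1R2L replicate 1 (-0.21, adjusted p = 0.0974), without B16-F1 replicate 1 (adjusted p = 0.122), without B16-F1 replicate 2 (adjusted p = 0.105) and without either B16-F1R2 library (adjusted p = 0.0557 and 0.0562).

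Tgfbr2 (ENSMUSG00000032440.5, chr9:115993415-116084383, minus strand, NCBIM37, 8 exons), the type II receptor that binds the ligand first, was at 12.2 and 11.9 FPKM in the B16-F1 libraries, 11.4 and 11.9 FPKM in those of B16-F1R2 and 14.3 and 14.6 FPKM in those of B16-F1R2L. The B16-F1R2L libraries were the highest and the values of the other lines nearly met. Its difference between B16-F1R2 and B16-F1 was -0.05 on the log2 scale (interval -0.19 to 0.09, adjusted p = 0.471 by limma). Tgfbr2 was 1.19-fold higher in B16-F1R2L than B16-F1 (log2 fold change 0.25, SE 0.0573, interval 0.12 to 0.39, adjusted p = 0.00964 by limma) and 1.24-fold higher than in B16-F1R2 (log2 fold change 0.31, interval 0.17 to 0.45, adjusted p = 0.0165). Without B16-F1 replicate 2 the former gave an adjusted p of 0.0609, and the latter gave 0.0885 without B16-F1R2 replicate 1 and 0.0773 without B16-F1R2L replicate 2 (limma).

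The ratio of Tgfbr2 to Tgfbr1 was 1.65 and 1.64 within B16-F1, 2.18 and 2.28 within B16-F1R2 and 2.82 and 2.30 within B16-F1R2L. It was lowest in both B16-F1 libraries and did not overlap between lines, although the replicates of B16-F1R2L were far apart and the lower one was close to B16-F1R2.

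Among the latent binding proteins, Ltbp3 was by far the most abundant in all 3 lines, and neither tested member passed the test. Ltbp3 (ENSMUSG00000024940.9, chr19:5740904-5758532, plus strand, NCBIM37, 28 exons), which associates with latent TGF-beta and is known for its part in bone and tooth development, was at 20.3 and 19.7 FPKM in the B16-F1 libraries, 17.8 and 18.6 FPKM in those of B16-F1R2 and 18.9 and 18.4 FPKM in those of B16-F1R2L. The B16-F1 libraries were slightly above the others, but the difference of B16-F1R2 from B16-F1 did not pass the test (log2 fold change -0.14, interval -0.26 to -0.01, adjusted p = 0.0633, unadjusted p = 0.0367 by limma), and neither did that of B16-F1R2L (-0.10, interval -0.22 to 0.03, adjusted p = 0.154).

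Ltbp4 (ENSMUSG00000040488.9, chr7:28090155-28122711, minus strand, NCBIM37, 33 exons), which also takes part in the assembly of elastic fibres, was at 3.41 and 3.07 FPKM in the B16-F1 libraries, 2.75 and 3.29 FPKM in those of B16-F1R2 and 3.41 and 2.67 FPKM in those of B16-F1R2L. All 3 lines overlapped, with differences from B16-F1 of -0.10 on the log2 scale in both (intervals -0.48 to 0.28 and -0.47 to 0.28, adjusted p = 0.614 and 0.615 by limma). Ltbp3 made up 85.7%, 83.6% and 84.7% of the summed Ltbp FPKM in the same order of lines, and Ltbp4 made up 13.9%, 13.9% and 13.7%.

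Ltbp2 (ENSMUSG00000002020.8, chr12:86124162-86217482, minus strand, NCBIM37, 36 exons), the family member that does not bind latent TGF-beta and belongs to the elastic fibre matrix, was listed at 0 in both B16-F1 libraries. It was at 0.264 and 0.410 FPKM in B16-F1R2 and at 0.337 and 0.309 FPKM in B16-F1R2L, values worth about 25.2 to 41.1 reads at the estimated depth. No fold change is given against libraries listed at 0. No test is given either, since the log value and the lack of spread of libraries at 0 are set by the pseudocount. Of its 50-base stretches 10.3% were shared with another gene. Its exons overlap those of D030025P21Rik on the opposite strand, which was listed at 0 in all libraries, and whether strand was used in counting is not given in the sources used here.

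Ltbp1 (ENSMUSG00000001870.8, chr17:75404908-75791852, plus strand, NCBIM37, 34 exons), which anchors latent TGF-beta in the matrix of many tissues, was at 0.135 and 0.0844 FPKM in the B16-F1 libraries, 0.202 and 0.243 FPKM in those of B16-F1R2 and 0.0297 and 0 FPKM in those of B16-F1R2L. The libraries of the 3 lines did not overlap, but the values were worth about 23.9 reads at most, and about 2.7 reads in the higher B16-F1R2L library. Neither a fold change nor a test is given, since values this near 0 take theirs largely from the pseudocount.

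Tgfbi (ENSMUSG00000035493.8, chr13:56710920-56740923, plus strand, NCBIM37, 17 exons) was listed at 0 in 2 libraries and was worth about 1 read in the other 4. It was at 0.0304 and 0.0316 FPKM in the B16-F1 libraries, 0.0299 and 0 FPKM in those of B16-F1R2 and 0 and 0.0252 FPKM in those of B16-F1R2L, where 1 read was worth 0.0228 to 0.0272 FPKM. At this depth a difference between the lines could not have been detected, and no test is given, since all values lie under the pseudocount.

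In all 3 lines Ltbp3 had the highest level per length, followed by Tgfbr2, and these neighbours did not overlap. In B16-F1 the next were Tgfb1 and Tgfbr1, which overlapped, then Ltbp4, then Tgfb2 and Tgfb3, which overlapped. In B16-F1R2 Tgfbr1 came after Tgfbr2, followed by Tgfb2, Tgfb3 and Tgfb1, each overlapping its neighbour, and by Ltbp4. In B16-F1R2L Tgfbr1 and Tgfb1 overlapped, as did Tgfb2 and Tgfb3, and Ltbp4 was again the lowest of the tested members. Compared with the 11379 tested genes these levels were modest: the mean FPKM over the 6 libraries exceeded that of 60.3% of genes for Ltbp3, 48.2% for Tgfbr2, 28.5% for Tgfbr1, 27.6% for Tgfb1, 20.4% for Tgfb2, 19.3% for Tgfb3 and 16.2% for Ltbp4.

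Counted over the 7 tested members, 2 (Tgfb2 and Tgfb3) were higher and 2 (Tgfb1 and Tgfbr1) were lower in B16-F1R2 against B16-F1, where 28.2% of all tested genes were called higher and 27.2% lower. In B16-F1R2L against B16-F1, 3 members (Tgfb2, Tgfb3 and Tgfbr2) were higher and 2 (Tgfb1 and Tgfbr1) lower, beside 29.5% and 27.1% of all genes. In B16-F1R2L against B16-F1R2, 1 member (Tgfbr2) was higher and 0 were lower by limma, beside 12.1% and 10.5% of all genes, and 2 members (Tgfb1 and Tgfbr2), both higher, had an unadjusted p under 0.05. With 7 members, these counts lay near the background.

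The libraries of the lines did not overlap for 6 of the 7 members in B16-F1R2 against B16-F1 and for 6 in B16-F1R2L against B16-F1, compared with 80.0% and 80.8% of all tested genes, and for 2 in B16-F1R2L against B16-F1R2, compared with 65.2%. The median log2 fold change of the members was -0.10, -0.10 and 0.04 in these comparisons, beside 0.0046, 0.0166 and 0.022 over all tested genes. The comparisons with B16-F1 share its 2 libraries, so the similar values of Tgfb2 and Tgfb3 in both are not independent of each other.

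**Figure D3:**
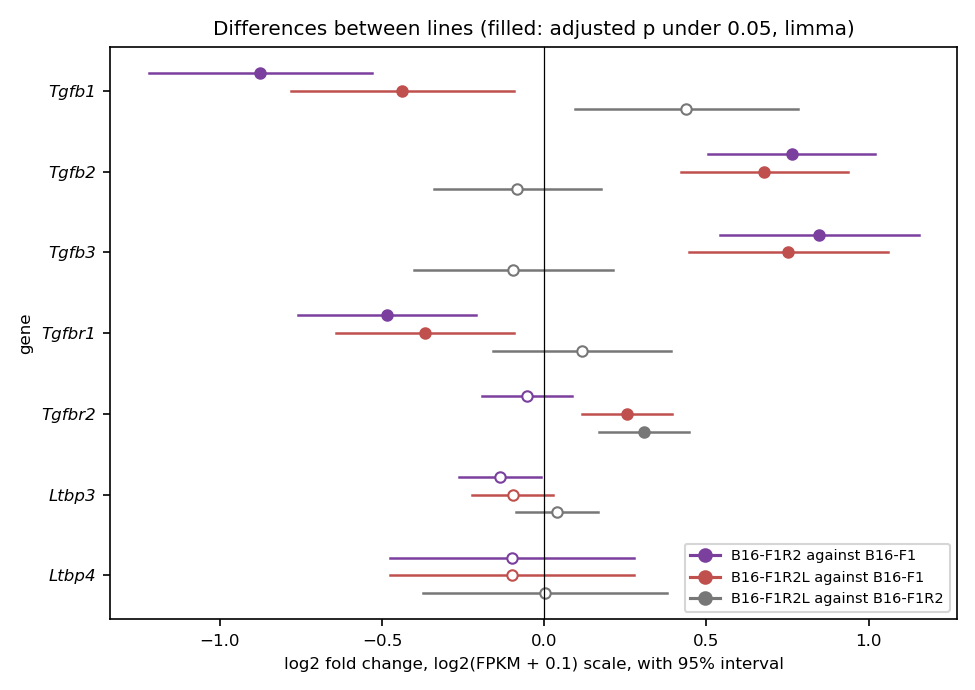
Log2 fold changes, computed from log2(FPKM + 0.1), with their 95% intervals (horizontal lines) for the 7 tested members in the 3 comparisons of lines, with filled points for an adjusted p under 0.05 by limma. Tgfb1 lies at -0.88 and Tgfb3 at 0.85 in B16-F1R2 against B16-F1, Tgfbr2 is the only filled point in B16-F1R2L against B16-F1R2, and all Ltbp3 and Ltbp4 points are open.

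The genes whose pattern over the 6 libraries lay nearest to that of Tgfb2, the member with the largest F statistic of the fit (30.7), were Cep170b, Kank4, Zc3h13, Tom1l1 and Esf1. Their Euclidean distances in centred log2 values were 0.0992, 0.115, 0.116, 0.121 and 0.128. Kank4 was at 3.73 and 3.38 FPKM in the B16-F1 libraries, 5.62 and 6.04 FPKM in those of B16-F1R2 and 6.03 and 5.64 FPKM in those of B16-F1R2L, a level and a spread much like those of Tgfb2.

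Around the ligands and receptors, genes for activation and storage of latent TGF-beta were called in both directions. The shares of all tested genes called higher and lower, given here again beside the list counts, were 28.2% and 27.2% in B16-F1R2 against B16-F1, 29.5% and 27.1% in B16-F1R2L against B16-F1, and 12.1% and 10.5% in B16-F1R2L against B16-F1R2. Of 18 such genes 10 were tested, with 4 higher and 4 lower in B16-F1R2 than B16-F1, 5 higher and 3 lower in B16-F1R2L than B16-F1, and 3 higher and 1 lower in B16-F1R2L than B16-F1R2. The number lower in B16-F1R2L than B16-F1 ran from 1 to 3 under the other scalings and was 1 without B16-F1 replicate 1, B16-F1 replicate 2 or B16-F1R2L replicate 2. Of the 3 higher in B16-F1R2L than B16-F1R2, 0 were left without B16-F1R2 replicate 1 or B16-F1R2L replicate 2 and 1 without either other library of these lines, and the 1 lower was lost in 5 of the 6 fits with a library left out. Their median log2 fold changes were 0.06, 0.24 and 0.11. Mmp2, a gelatinase that can release TGF-beta from its latent complex, was at 1.22 and 1.06 FPKM in the B16-F1 libraries, 22.9 and 22.8 FPKM in those of B16-F1R2 and 30.7 and 29.6 FPKM in those of B16-F1R2L. It rose by 4.21 on the log2 scale in B16-F1R2 (SE 0.0798, adjusted p = 5.2e-07 by limma), and by 3.48 to 4.32 over the alternatives.

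Emilin1, an elastic fibre glycoprotein that binds the TGF-beta precursor and restrains its processing, was at 4.50 and 4.41 FPKM in the B16-F1 libraries, 40.3 and 40.6 FPKM in those of B16-F1R2 and 35.5 and 30.4 FPKM in those of B16-F1R2L. The rise in B16-F1R2 was 3.15 on the log2 scale (SE 0.0787, adjusted p = 1.52e-06 by limma). Bmp1, a protease that cleaves LTBP1 and procollagens, rose by 1.02 (adjusted p = 0.000211). In the other direction, Furin, the convertase that cleaves the TGF-beta precursor, was at 20.2 and 19.6 FPKM in B16-F1 and at 15.2 and 15.7 FPKM in B16-F1R2 (log2 fold change -0.36, adjusted p = 0.00579 by limma). Itgav, the alpha chain of the integrins that activate latent TGF-beta, fell by 0.40 on the log2 scale in B16-F1R2 (adjusted p = 0.00428 by limma). Thbs1, which encodes the activator thrombospondin 1, was below the filter at 0.954 and 1.19 FPKM in the B16-F1 libraries, 0.525 and 0.397 FPKM in those of B16-F1R2 and 0.359 and 0.339 FPKM in those of B16-F1R2L.

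Of the 6 co-receptors and further receptors 5 were tested, with 1 higher and 2 lower in B16-F1R2 than B16-F1, 2 higher and 1 lower in B16-F1R2L than B16-F1, and 0 called in either direction between B16-F1R2L and B16-F1R2 (1 higher at an unadjusted p under 0.05, limma). With 5 genes these counts lay near the shares of all genes, 28.2% higher and 27.2% lower in the first comparison and 29.5% and 27.1% in the second. With a library left out, the 2 lower in B16-F1R2 numbered 1 to 2 and the 2 higher in B16-F1R2L likewise. Their medians were -0.04, 0.10 and 0.11. Eng, the co-receptor endoglin, was at 96.9 and 101 FPKM in the B16-F1 libraries, 65.5 and 67.3 FPKM in those of B16-F1R2 and 69.4 and 60.0 FPKM in those of B16-F1R2L, a fall of 0.57 on the log2 scale in B16-F1R2 (adjusted p = 0.000868 by limma). Acvrl1, a type I receptor that signals with endoglin, rose by 0.31 (adjusted p = 0.00647), and Acvr2a, an activin type II receptor, had a log2 fold change of -0.37 (adjusted p = 0.0253), which lost its call without B16-F1 replicate 1 (adjusted p = 0.124), B16-F1 replicate 2 (0.0549) or B16-F1R2 replicate 1 (0.114). Tgfbr3, the co-receptor betaglycan, was below the filter at 0.475 and 0.497 FPKM in the B16-F1 libraries, 0.277 and 0.287 FPKM in those of B16-F1R2 and 0.180 and 0.141 FPKM in those of B16-F1R2L.

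The SMADs that carry the signal did not pass the test between B16-F1 and B16-F1R2, whereas Smad3 and Smad4 did in B16-F1R2L against B16-F1. In B16-F1R2 Smad2, Smad3 and Smad4 had log2 fold changes of -0.10, 0.07 and -0.14 (adjusted p = 0.326, 0.317 and 0.0693 by limma). In B16-F1R2L they were -0.14, 0.17 and -0.21 (adjusted p = 0.18, 0.043 and 0.0168 by limma). The Smad3 call was lost in 10 of 16 alternatives, each library left out among them (adjusted p from 0.0659 to 0.197), and that of Smad4 after rescaling (0.208), without B16-F1 replicate 1 (0.105) and without B16-F1R2L replicate 2 (0.0725 by limma). Of the 14 SMADs and their regulators, all tested, 4 were lower and 0 higher in B16-F1R2 than B16-F1 (6 and 0 at an unadjusted p under 0.05, limma), 2 higher and 7 lower in B16-F1R2L than B16-F1, and 1 higher and 2 lower in B16-F1R2L than B16-F1R2, with medians of -0.12, -0.18 and -0.05. Of all tested genes 27.2% were lower and 28.2% higher in the first of these comparisons, 27.1% and 29.5% in the second, and 10.5% and 12.1% in the last. The counts lower in B16-F1R2L include Pmepa1 in both comparisons. That gene passed the filter only through the lines in which it is high, so a lower value in B16-F1R2L was built in. Under the other scalings the number lower in B16-F1R2L than B16-F1 ran from 4 to 10 and the number higher from 0 to 3. With a library left out the number higher was 0 to 1, and of the 2 lower in B16-F1R2L than B16-F1R2, 0 were left without B16-F1R2 replicate 1, B16-F1R2 replicate 2 or B16-F1R2L replicate 1. The 4 that fell in B16-F1R2 were the corepressor Tgif2 (-0.47, adjusted p = 0.00252), the ubiquitin ligases Smurf1 (-0.33, adjusted p = 0.00556) and Smurf2 (-0.29, adjusted p = 0.00353), and the SMAD anchor Zfyve9 (-0.21, adjusted p = 0.0327 by limma). Zfyve9 lost its call without B16-F1 replicate 1 (adjusted p = 0.116), B16-F1 replicate 2 (0.123) or B16-F1R2 replicate 1 (0.145) and after rescaling (0.0833).

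Genes that TGF-beta induces in many cell types were called in both directions. Of 19 such genes, among them Ltbp2 and Tgfbi themselves, 13 were tested, with 3 higher and 3 lower in B16-F1R2 than B16-F1, 3 higher and 5 lower in B16-F1R2L than B16-F1, and 2 higher and 5 lower in B16-F1R2L than B16-F1R2, at medians of -0.0012, -0.23 and -0.28. The shares of all genes were 28.2% higher and 27.2% lower, 29.5% and 27.1%, and 12.1% and 10.5% in the same order. Under the other scalings the number lower ran from 3 to 8 in B16-F1R2L against B16-F1 and from 3 to 6 in B16-F1R2L against B16-F1R2. The 5 lower in the last comparison were 1 without either B16-F1R2 library, 2 without either B16-F1R2L library and 3 without either B16-F1 library. The calls higher in that comparison, Timp3 and Snai2, were lost without B16-F1R2 replicate 1 or B16-F1R2L replicate 2. Of the calls lower in B16-F1R2L than B16-F1, those of Ctgf, Junb and Bhlhe40 were lost without B16-F1 replicate 2. Those of Junb and Bhlhe40 were also lost without B16-F1R2L replicate 2. The tested genes hold 4, Col1a1, Ctgf, Pmepa1 and Tagln, that passed the filter only through the lines in which they are high. Col1a1, a collagen chain, was at 0.226 and 0.311 FPKM in the B16-F1 libraries, 16.8 and 17.1 FPKM in those of B16-F1R2 and 2.81 and 2.19 FPKM in those of B16-F1R2L. It passed the filter only through the derived lines, so that a difference from B16-F1 was built in, and its fitted log2 fold change in B16-F1R2 depended on the pseudocount (5.54, with 3.82 at a pseudocount of 1 and 5.95 at 0.01). Fn1, which encodes fibronectin, rose by 2.57 on the log2 scale (adjusted p = 4.92e-06 by limma). Against these, Snai2, a transcription factor of neural crest and mesenchymal cells, fell by 1.16 in B16-F1R2 (adjusted p = 0.000748 by limma). In B16-F1R2L it was at 2.55 and 2.66 FPKM, beside 3.36 and 2.99 FPKM in B16-F1, and was not called (log2 fold change -0.27, adjusted p = 0.144 by limma). Snai2 was 0.89 higher there than in B16-F1R2 (adjusted p = 0.011 by limma), a call lost in 2 of 15 alternatives. The matricellular gene Ctgf was at 2.09 and 2.36 FPKM in the B16-F1 libraries, 0.617 and 1.24 FPKM in those of B16-F1R2 and 0.731 and 0.962 FPKM in those of B16-F1R2L. It passed the filter through B16-F1, where it is high, so no p is given, and its log2 fold change in B16-F1R2 was -1.25, with -1.98 to -0.76 over the alternatives.

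Of 6 decoys and binders of the ligand only Vasn was tested, without a call in any comparison (log2 fold changes 0.24, 0.28 and 0.04, with adjusted p = 0.168, 0.111 and 0.838 by limma), and Dcn, Bgn, Fmod and Fst were listed at 0 in all libraries. Htra1 was below the filter. It was listed at 0 in both B16-F1 libraries and was at 0.711 and 0.617 FPKM in those of B16-F1R2 and 0.791 and 0.504 FPKM in those of B16-F1R2L. As for Ltbp2, neither a fold change nor a test is given for Htra1.

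A few further genes of these lists are given by their values in B16-F1R2L. They were picked out after those values were seen, so their number is no result. Smad7, the inhibitory SMAD, was at 2.16 and 2.26 FPKM in the B16-F1 libraries, 2.07 and 2.35 FPKM in those of B16-F1R2 and 1.36 and 1.49 FPKM in those of B16-F1R2L, with both B16-F1R2L libraries below the other 4. Its log2 fold change was -0.60 against B16-F1 (adjusted p = 0.00891 by limma; -1.18 to -0.40 over the alternatives) and -0.60 against B16-F1R2 (adjusted p = 0.0262; -0.92 to -0.40), and the latter call was lost in 9 of 15 alternatives, among them any of the 6 libraries left out (adjusted p from 0.0502 to 0.0981 by limma). Pmepa1, another inhibitor of the pathway, was at 1.76 and 1.42 FPKM in the B16-F1 libraries, at 1.15 and 1.56 FPKM in those of B16-F1R2 and at 0.330 and 0.614 FPKM in those of B16-F1R2L. It passed the filter only through the lines in which it is high, so no p is given, and its log2 fold changes of -1.60 and -1.38 ran from -2.79 to -0.82 against B16-F1 and from -2.15 to -0.68 against B16-F1R2 over the alternatives.

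Timp3, an inhibitor of metalloproteinases, was at 3.31 and 3.11 FPKM in the B16-F1 libraries, 5.09 and 6.04 FPKM in those of B16-F1R2 and 8.80 and 10.9 FPKM in those of B16-F1R2L, so that the lines did not overlap. It was higher in B16-F1R2L by 1.58 on the log2 scale against B16-F1 (adjusted p = 0.000151 by limma) and by 0.81 against B16-F1R2 (adjusted p = 0.0118; 0.0705 without B16-F1R2 replicate 1 and 0.0617 without B16-F1R2L replicate 2). The integrin beta chain Itgb3 differed by 0.39 from B16-F1 (adjusted p = 0.0314 by limma) and by 0.78 from B16-F1R2 (adjusted p = 0.0101). The former call was lost in 5 of 15 alternatives, among them quantile normalization (log2 fold change 0.083, adjusted p = 0.559), and the latter without B16-F1R2 replicate 1 (0.0644) or B16-F1R2L replicate 2 (0.0571 by limma). Against B16-F1R2 the difference of Itgb5, another beta chain, was 0.29 (adjusted p = 0.0455 by limma) and was lost in 12 of 16 alternatives, any library left out among them. That of Mmp2 was 0.40 (adjusted p = 0.0197) and was lost without any of the 4 libraries compared (adjusted p from 0.0738 to 0.0974 by limma).

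**Figure D4:**
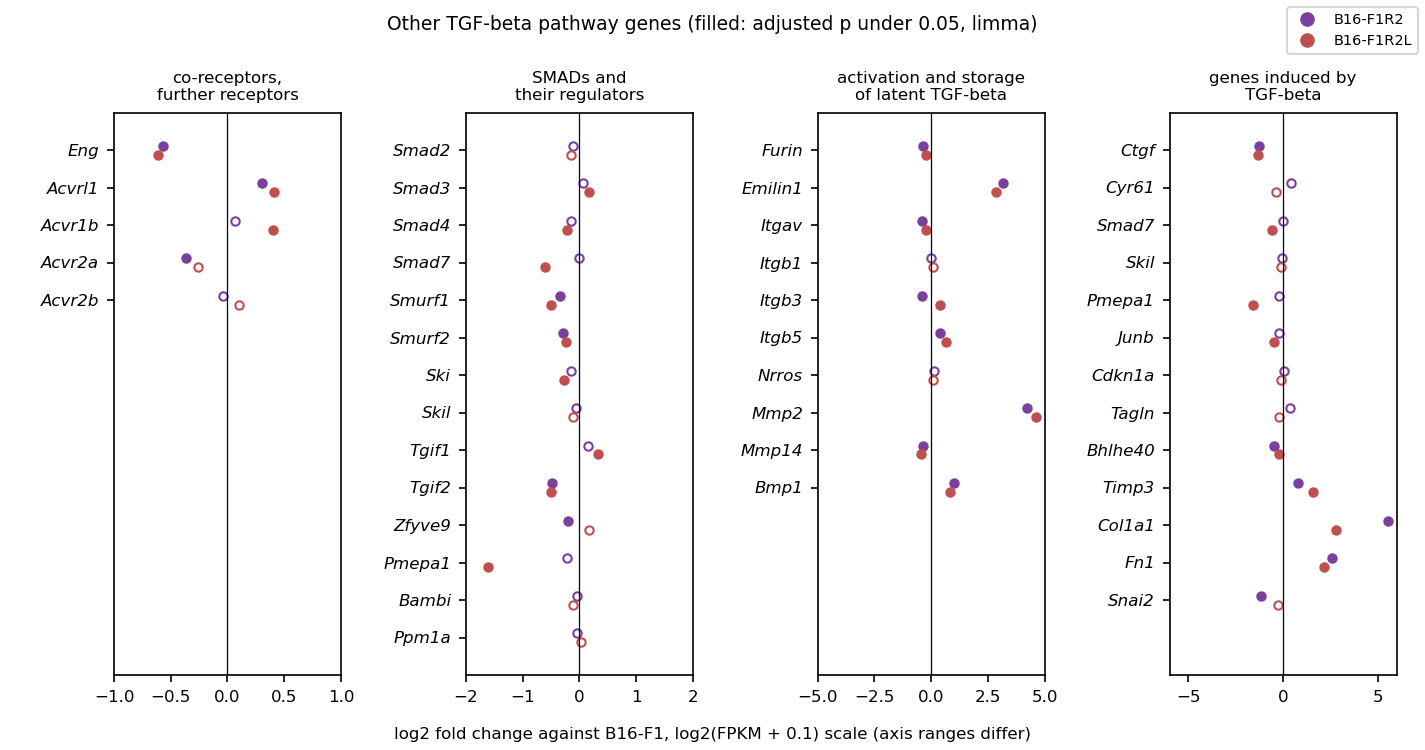
Log2 fold changes against B16-F1, on the log2(FPKM + 0.1) scale, of the tested genes of 4 pathway lists in B16-F1R2 and B16-F1R2L, with filled points for an adjusted p under 0.05 by limma and an axis range of its own for each list. Mmp2 and Emilin1 stand out among the activation and storage genes, and Col1a1 among the induced genes, while Smad2 is open in both lines and Smad3 and Smad4 are filled in B16-F1R2L. Col1a1, Ctgf and Pmepa1 passed the filter only through the lines in which they are high, so their filled points are not to be read as tests.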

How the data were processed

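Polyadenylated RNA was sequenced by the authors in strand-marked single-end reads of 50 bases and aligned to mm9, and the table they deposited gives FPKM per gene and library, with replicates not pooled. The submitters' processing notes name FastQC 0.10.1, TopHat2 2.0.10, Bowtie 1.0.0, SAMtools 0.1.1.9, DESeq2 and Cuffnorm. The gene annotation is not given in the sources used here, and DESeq2 was the authors' test, which needs counts. From the FPKM, log2(FPKM + 0.1) was computed for genes reaching 1 FPKM in 2 libraries or more. The 3 lines, as labelled, were compared over all 6 libraries using limma 3.58.1 under R 4.3.3 (linear fit per gene, moderated with a mean-dependent trend), and p-values adjusted by Benjamini-Hochberg were called under 0.05. The pseudocount understates changes of low genes. Depth was estimated from the FPKM of single reads of genes with 1 annotated transcript. It is no count, so no counting interval was computed. In data simulated for B16-F1R2 against B16-F1, 185 of 200 changed genes were recovered and 7 others called, over 11379 genes. In the real data 28.2% of tested genes were called higher and 27.2% lower, and recovery at such shares was not tested. Recovery was not split by size of difference, so none is given for differences as small as those of the members.

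The members and the gene lists were chosen with earlier results of these data known. The rule named all 10 members, up to 4 genes per pathway list with the largest called change in B16-F1R2 against B16-F1 and no overlap of libraries, Emilin1, Furin, Smad2, Smad3 and Smad4 always, and the 5 genes nearest in pattern to the member with the largest F statistic. Some results are not reported here. Positions came from NCBIM37 and promoters from RefSeq (GRCm38.p6), by symbol. Python 3.11.15 with numpy 2.4.6 and pandas 2.3.3 served for the other steps. Alternatives were pseudocounts of 1 and 0.01, no filter or 5 FPKM, rescaling to a sum of 1000000, median-ratio scaling, quantile normalization, no trend, the 4 libraries compared, a replicate block, a log2 fold change of at least 1, and leaving out each library.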

Additional observations from a re-analysis of the deposited data

Results flagged for a closer look

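The difference of Tgfbr2 from B16-F1 was 0.31 larger on the log2 scale in B16-F1R2L than in B16-F1R2. It drew attention because the difference between the effects in the 2 derived lines itself passed the test (adjusted p = 0.0165 by limma; 0.0885 without B16-F1R2 replicate 1 and 0.0773 without B16-F1R2L replicate 2), with Tgfbr2 at 0.25 above B16-F1 in B16-F1R2L and at -0.05 in B16-F1R2. Since both effects share the B16-F1 libraries, this is the direct comparison of the 2 derived lines, and both B16-F1R2L libraries were above both B16-F1R2 libraries.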

How the results depend on the processing

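In B16-F1R2 against B16-F1, Tgfb1 kept its direction and call in 16 of 16 alternatives, and Tgfb2 and Tgfb3 in 15 of 15. When calls also needed a log2 fold change of 1 or more, 0 members were called in any comparison, and the genes called higher and lower were 819 and 328 in B16-F1R2 against B16-F1, 957 and 259 in B16-F1R2L against B16-F1, and 116 and 24 in B16-F1R2L against B16-F1R2. With a minimum of 5 FPKM, which removes Tgfb2 and Tgfb3, 0 members were higher in B16-F1R2 and 1 in B16-F1R2L against B16-F1. Rescaling to a common sum moved the median of all genes to 0.118 and 0.129 in the comparisons of B16-F1R2L, and 2043 genes were then lower than in B16-F1, while 2079 were higher and 489 lower than in B16-F1R2. It left 0 members lower in B16-F1R2L against B16-F1 and 2 higher against B16-F1R2, and it turned Ltbp3 (0.0050) and Ltbp4 (0.0012) against B16-F1 and Tgfb2 (0.023) and Tgfb3 (0.011) against B16-F1R2. Members lower in B16-F1R2L against B16-F1 were 1 without the filter (Ltbp1, whose values there lie under the pseudocount, with Tgfb1 at an adjusted p of 0.0748 and Tgfbr1 at 0.0605 by limma), 1 without a trend (Tgfbr1, with Tgfb1 at 0.0564) and 0 with the 4 libraries compared. In B16-F1R2L against B16-F1R2, 743 genes were lower without the filter (and 1 member, Ltbp1), 650 without a trend, and 874 were higher and 644 lower with the 4 libraries compared. When each library was left out in turn, members lower numbered 1 to 2 in B16-F1R2 against B16-F1 and 0 to 1 in B16-F1R2L against B16-F1, members higher 0 to 1 in B16-F1R2L against B16-F1R2, and genes in the last comparison 297 to 904 higher and 140 to 991 lower. Directions of changes not called also turned: with a library left out, Ltbp4 ran from -0.22 to 0.024 in B16-F1R2 against B16-F1, from -0.27 to 0.073 in B16-F1R2L against B16-F1 and from -0.17 to 0.17 in B16-F1R2L against B16-F1R2. In the last comparison Ltbp4 was -0.018 with median-ratio scaling and -0.17 with quantile normalization, Tgfbr1 ran from -0.044 to 0.28 and Tgfb2 from -0.17 to 0.0021 with a library left out. The cause of these shifts was not tested.

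With the replicate number as a block, the genes called in B16-F1R2 against B16-F1 were 3141 higher and 3040 lower, and the members were called as without the replicate block. Deviations of same-numbered libraries correlated at 0.05 (B16-F1 and B16-F1R2), -0.10 (B16-F1 and B16-F1R2L) and 0.08 (B16-F1R2 and B16-F1R2L), so the libraries were taken to share only a number.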
